A study of Zingiber officinale with 6 samples.

Results

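LOC122018536 is a single gene of ginger (Zingiber officinale), annotated as a 1-aminocyclopropane-1-carboxylate (ACC) oxidase-like gene and found by its ID in the deposited counts and FPKM values, as 1 of 55601 genes. It was chosen by its measured counts in these same libraries, which were far higher in leaf blades of plants exposed to volatile organic compounds of the oomycete Pythium oligandrum strain GAQ1 (Po-VOCs) than in control plants, and which differed widely between the exposed plants. Its levels in this contrast are therefore given as a description, with no test. RNA-seq was performed on the leaf blades of the uppermost leaves of 3 exposed and 3 control plants of the Laiwu variety at 21 days, with 1 library for each biological replicate, called a plant below. All plants were derived from tissue culture and stood in pots of sterilized vermiculite and organic matter, sealed on top of a glass jar with V8 agar, so that the roots met the air of the jar. In the Po-VOCs group the agar carried a growing plug of P. oligandrum GAQ1, and in the control group it was left without the oomycete. The plants are called control plant 1 to 3 and exposed plant 1 to 3, by the replicate numbers of the labels.

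Ethylene is a gaseous plant hormone known for its roles in leaf senescence, fruit ripening, flooding and wounding responses and defense. It is made from S-adenosylmethionine by ACC synthase, which forms ACC, and by ACC oxidase, an iron-dependent oxygenase that turns ACC into ethylene. Binding of ethylene inactivates its receptors at the endoplasmic reticulum and ends the repression they exert on the pathway, so that the transcription factor EIN3 accumulates and switches on ethylene-responsive factor genes, while EIN3-binding F-box proteins mark EIN3 for degradation. These roles are known mostly from Arabidopsis thaliana and tomato, and no ethylene was measured with these libraries.

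The libraries held between 13695463 and 14662442 counts on genes, and their TMM factors, which correct library sizes for composition, lay between 0.914 in exposed plant 3 and 1.09 in exposed plant 1. A principal-component analysis of the 500 most variable genes separated the groups on the first component (58.0% of the variance), where exposed plant 1 had the lowest score of the exposed plants (27.3, against 42.9 and 51.5). Control plant 3 stood apart on the second component, with a score of -58.1 against 18.0 and 35.6 for the other control plants, so values are also given without it where it changes them. Chi-square values between plants of a group were 17.5 to 37.1 per degree of freedom, so no library repeated another. The 65 rows of plastid-encoded genes took between 0.00381% and 0.0241% of the counts, the highest in exposed plant 3. The gene descriptions were held only in part, for 1517 of the genes the study listed as upregulated, so that every count of described genes below may miss members, and the leaf label was not checked against leaf marker genes.

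LOC122018536 was close to silent in control plants and reached a moderate level in exposed plants, with a wide gap between the exposed plants themselves. It lies on chromosome 9A of the Zo_v1.1 assembly, at positions 118958910 to 118960418, and has 1 RefSeq transcript. The read counts were 2, 1 and 2 in control plants 1, 2 and 3, and 34, 611 and 231 in exposed plants 1, 2 and 3. In FPKM, which divides the counts by gene length and library total, this was 0.104, 0.0511 and 0.103 in the control plants and 1.81, 30.4 and 12.01 in the exposed plants. All 3 exposed plants lay above all 3 control plants, and the lowest exposed plant was 17.4-fold above the highest control plant. At this depth a single count corresponded to 0.0498 to 0.0533 FPKM, so the control values rest on very few reads.
The mean was 0.0862 ± 0.0304 FPKM in control plants and 14.8 ± 14.5 FPKM in exposed plants (SD, n = 3 each). The SD of the exposed plants was thus about as large as their mean. From the summed counts of 876 against 5, the level was 175-fold higher in exposed plants (exact 95% interval 74.9 to 542, for counting error alone). The fold change fitted by edgeR was 7.33 on the log2 scale, and between 6.32 and 7.86 with any single library left out, lowest without exposed plant 2 and highest without exposed plant 1. Without control plant 3, which stood apart on the second component, it was 7.46. Leaf blades hold several cell types, and more cells of a type cannot be told apart from more RNA per cell.

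**Figure D1:**
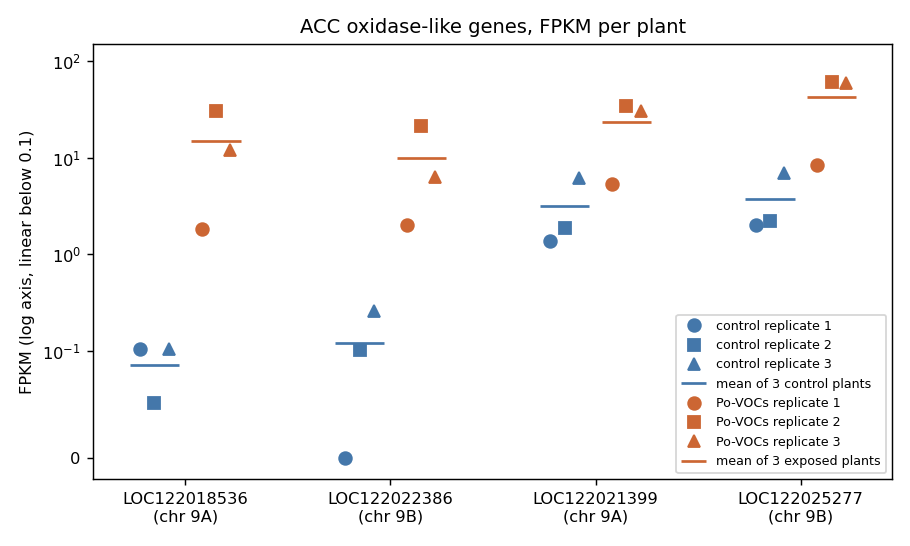
FPKM (log axis, linear below 0.1) of the 4 ACC oxidase-like genes in each plant, with blue symbols for control plants, orange symbols for exposed plants and horizontal bars for the mean of 3 plants. LOC122018536 lay between 0.0511 and 0.104 FPKM in control plants and between 1.81 and 30.4 FPKM in exposed plants, and exposed plant 1 was the lowest exposed plant for all 4 genes.

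The spread between the exposed plants was the second feature of this gene. Exposed plant 2 had 16.8 times the level of exposed plant 1 (exact 95% interval 11.9 to 24.5) and 2.53 times that of exposed plant 3 (2.17 to 2.96), and exposed plant 3 had 6.62 times that of plant 1 (4.61 to 9.79). These intervals cover counting error only, and since the gene was chosen with this spread in view they describe the libraries and test nothing. Against the pooled control plants, the level was 21.1-fold higher in exposed plant 1 (8.20 to 69.1), 354-fold in exposed plant 2 (151 to 1094) and 140-fold in exposed plant 3 (59.0 to 434). The TMM factors of the exposed plants, 1.09, 1.01 and 0.914, differed far less than these levels. Exposed plant 1, the lowest for this gene, also had the lowest score of the exposed plants on the first principal component, and the part of this in the spread was not tested.
On the log2 CPM scale (CPM, counts scaled to library size and TMM factor, with a prior count of 2), the range from the lowest to the highest exposed plant was 4.09, while the control plants spanned 0.46. Of the 36490 genes that were tested and had a mean above 1 FPKM in exposed plants, 147 had at least such a range, or 0.403%, and the median range was 0.60. These counts describe where the gene lay among the others and are no test, since its spread was part of the choice.

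**Figure D2:**
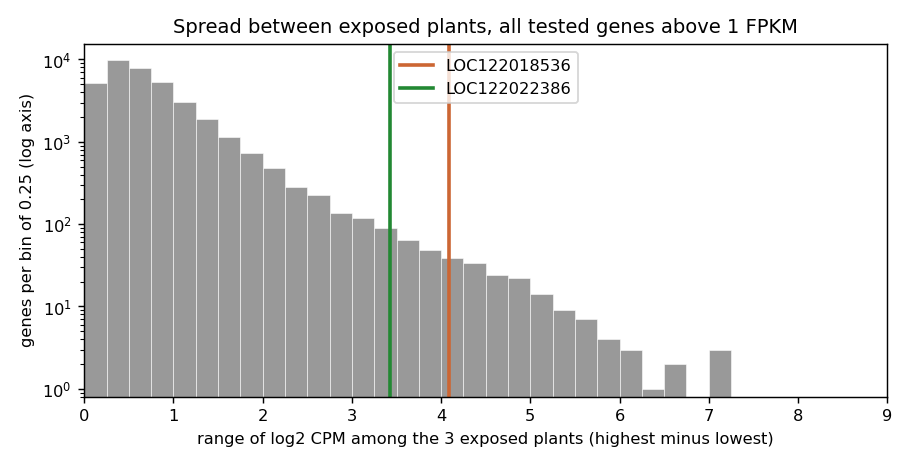
Histogram of the range of log2 CPM among the 3 exposed plants for the 36490 tested genes above 1 FPKM in exposed plants, with the number of genes per bin on a log axis. The vertical lines mark LOC122018536 at 4.09 and LOC122022386 at 3.43, against a median of 0.60.

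The order of the exposed plants was not peculiar to the gene. Plant 2 was the highest, plant 3 the next and plant 1 the lowest in log2 CPM for 4409 of the 36490 genes (12.1%), and for 84 (18.0%) of the 467 genes that edgeR called higher in exposed plants. A call needed an adjusted p below 0.05 and a log2 fold change above 1, which 1.13% of the 41508 genes tested met, while 1.04% were called lower. Exposed plant 1 was the lowest of the exposed plants in 34.5% of the 36490 genes and in 42.0% of those called higher. Exposed plant 3 was the lowest in 37.3% and 23.1%. The plant that most often had the highest level was plant 3, in 40.3% of the 36490 genes and in 45.0% of those called higher.

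A second ACC oxidase-like gene, LOC122022386, lies on chromosome 9B (107105034 to 107106544) and followed the same course. The Zo_v1.1 assembly names its chromosomes as an A and a B set. The span of LOC122022386 is 1511 bp, against 1509 bp for LOC122018536, and the lengths behind their FPKM values are 1370 and 1369 bp. Its sequence was not compared, so reads that fit both genes may have been dropped or assigned to either, and the split of counts between them is uncertain. It had 0, 2 and 5 counts in control plants 1, 2 and 3, and 38, 429 and 121 counts in exposed plants 1, 2 and 3. In FPKM, the control plants had 0, 0.102 and 0.258 and the exposed plants 2.03, 21.4 and 6.29, again with no overlap and with plant 2 highest and plant 1 lowest. The ratio of the summed counts was 84.1 (exact 95% interval 40.6 to 210), and exposed plant 2 had 10.5 times the level of exposed plant 1 (7.56 to 15.1). The fitted log2 fold change was 6.30, 7.41 without control plant 3, which held 5 of the 7 control counts, and 5.11 without exposed plant 2, its highest plant.
In exposed plants the 9A gene took the larger part of the counts of the pair in plants 2 and 3. Its share was 47.2% of 72 counts in exposed plant 1 (95% Wilson interval 36.1 to 58.6), 58.8% of 1040 counts in plant 2 (55.7 to 61.7) and 65.6% of 352 counts in plant 3 (60.5 to 70.4). The intervals of exposed plants 1 and 3 did not overlap, and the gene with the larger count was LOC122022386 in plant 1 and LOC122018536 in plants 2 and 3. In the control plants the pair held 12 counts in all, of which 41.7% were of the 9A gene (19.3 to 68.0), too few to tell whether the share differed from that of the exposed plants.

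The 2 neighbours of LOC122018536 that could be tested showed no change of like size. Neighbours were taken by position, as the nearest 2 annotated genes on each side, and those tested were part of the fit over all genes. LOC122019852, which lies 24453 bp towards lower coordinates, had 15.3, 16.6 and 18.8 FPKM in control plants and 18.0, 25.4 and 21.8 FPKM in exposed plants, so the groups overlapped. Its log2 fold change was 0.37 (adjusted p = 0.361, edgeR's quasi-likelihood test with Benjamini-Hochberg adjustment). LOC122020034, at 37238 bp towards higher coordinates, had 5.03, 6.82 and 8.23 FPKM in control plants and 7.56, 16.9 and 14.5 FPKM in exposed plants, which also overlapped, and its log2 fold change was 0.98 (adjusted p = 0.180, by the same edgeR fit). LOC122021339 had at most 2 counts in any library and was not tested. LOC122020625, annotated as a long noncoding RNA at 3605 bp towards higher coordinates, had no values among the deposited counts. Neither of the 2 neighbours tested passed the threshold, although their levels in exposed plants 2 and 3 were also above those in exposed plant 1.
Around LOC122022386 on chromosome 9B, neighbours chosen in the same way after these values were seen included genes of similar span, LOC122023722 (7445 bp, against 7626 bp for LOC122019852) and LOC122023893 (5495 bp, against 5503 bp for LOC122020034). Their log2 fold changes were 0.46 (adjusted p = 0.271) and 1.18 (adjusted p = 0.191) in the same edgeR test. Neither passed the threshold, but unlike on chromosome 9A the groups did not overlap in these genes. LOC122023722 had 10.3 to 11.0 FPKM in control plants and 11.7, 16.7 and 15.3 FPKM in exposed plants, and LOC122023893 had 2.33 to 2.93 FPKM in control plants and 3.19, 10.3 and 4.39 FPKM in exposed plants. The groups did overlap in LOC122024969, at 6.09 to 28.7 FPKM in control plants and 5.33 to 30.2 FPKM in exposed plants. Its log2 fold change was 0.22 (adjusted p = 0.890, same edgeR test). LOC122025205 had at most 1 count in any library and was not tested. The share of all genes whose groups do not overlap was not counted.

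**Figure D3:**
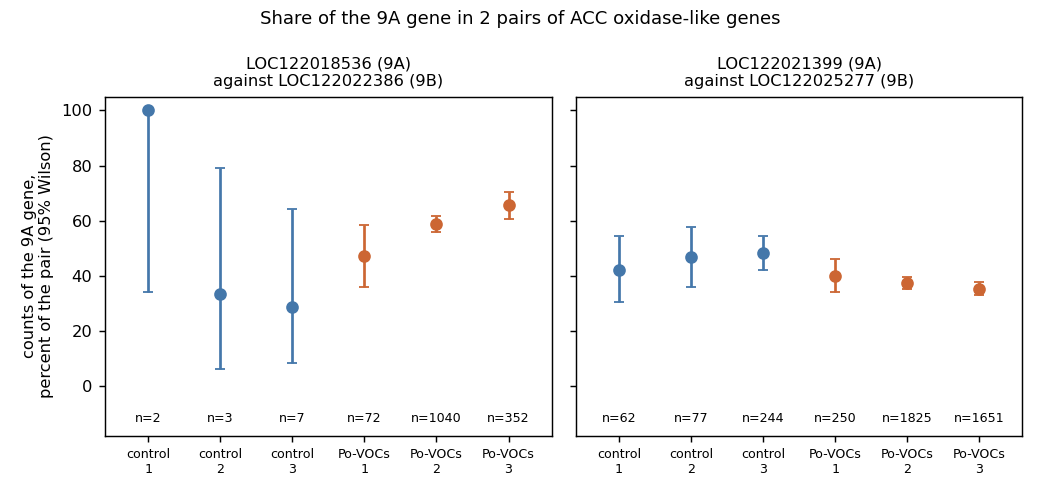
Counts of the 9A gene as a percent of the counts of its pair in each plant, with 95% Wilson intervals and n as the counts of the pair, for LOC122018536 with LOC122022386 and for LOC122021399 with LOC122025277. The share of LOC122018536 was 47.2%, 58.8% and 65.6% in exposed plants 1, 2 and 3, and that of LOC122021399 was 40%, 37.4% and 35.3%.

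A second pair of ACC oxidase-like genes on the same chromosomes was already active in control plants and showed the same low level in exposed plant 1. LOC122021399 (chromosome 9A, 9944228 to 9945762) had 1.36, 1.85 and 6.15 FPKM in control plants and 5.38, 34.3 and 30.5 FPKM in exposed plants. Exposed plant 1 thus lay below control plant 3, and the groups overlapped. LOC122025277 (chromosome 9B, 10315807 to 10317266) had 1.98, 2.21 and 6.87 FPKM in control plants and 8.44, 60.1 and 58.7 FPKM in exposed plants, with no overlap. Both genes had their highest control value in control plant 3, the plant that stood apart. The fitted log2 fold changes were 2.95 and 3.57, and 3.87 and 4.36 without control plant 3. In contrast to LOC122018536, exposed plants 2 and 3 were nearly level here, with a ratio of 1.12 (exact 95% interval 1.00 to 1.26) for LOC122021399 and 1.02 (0.942 to 1.11) for LOC122025277.
The share of the 9A gene in this pair was 41.9%, 46.8% and 48.4% in control plants and 40%, 37.4% and 35.3% in exposed plants 1, 2 and 3. The groups did not overlap, but the 95% Wilson interval of exposed plant 1 (34.1 to 46.2) held the share of control plant 1. The intervals of exposed plants 2 (35.2 to 39.6) and 3 (33.0 to 37.6) overlapped with each other and with that of plant 1, so their order is not resolved. The 9A share of the LOC122018536 pair had its highest exposed value in plant 3. Sequences were not compared for this pair either, so its split of counts is uncertain too.

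Levels per length can be added over these 4 genes to compare their shares. All 4 came from the study's upregulated genes, so ACC oxidase genes that were level or lower could not enter, and a higher sum in exposed plants was fixed by the choice. LOC122018536 was chosen for its large difference, so a larger share of it in exposed plants was largely fixed too. The shares are a description. The sum was 3.45, 4.22 and 13.4 FPKM in control plants and 17.7, 146 and 107 FPKM in exposed plants. LOC122018536 made up 3.02%, 1.21% and 0.772% of it in control plants and 10.3%, 20.8% and 11.2% in exposed plants 1, 2 and 3. With LOC122022386 the share was 2.70% to 3.63% in control plants and 21.7%, 35.4% and 17.0% in exposed plants. The pair of LOC122018536 thus went from a trace to between 17.0% and 35.4% of the sum, while LOC122021399 and LOC122025277 remained the larger part in every plant. In exposed plant 1 the latter reached 13.8 FPKM together, close to the 13.0 FPKM of control plant 3, whereas LOC122018536 and LOC122022386 reached 3.84 FPKM against at most 0.362 FPKM in any control plant. In exposed plant 1, LOC122018536, LOC122022386 and LOC122025277 were each above all control plants, and LOC122021399 was not.

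The 2 genes described for the step before ACC oxidase did not follow the same order of plants. Both are ACC synthase 3-like genes among the upregulated genes of the study, so ACC synthase genes that were level or lower could not enter. LOC122011509 (chromosome 8A, 6099704 to 6101750) had 0 counts in all 3 control plants and 90, 90 and 30 counts in exposed plants 1, 2 and 3, or 3.71, 3.47 and 1.21 FPKM. It was at least 23.3-fold higher in exposed plants against a floor of 3 counts per library. LOC122014466 (chromosome 8B, 4131993 to 4136329) had 0.439, 0.948 and 0.384 FPKM in control plants and 2.32, 2.49 and 1.00 FPKM in exposed plants, a log2 fold change of 1.68. Both ACC synthase-like genes were lowest in exposed plant 3 among the exposed plants and about equal in plants 1 and 2. Exposed plant 1 had 100% and 93.3% of the highest exposed level of LOC122011509 and LOC122014466, but 5.96% of that of LOC122018536, 9.48% of LOC122022386, 15.7% of LOC122021399 and 14.0% of LOC122025277. Plant 1 thus combined the high ACC synthase-like levels of plant 2 with the lowest ACC oxidase-like levels of the exposed plants.
On the signalling side, 2 further genes were described. LOC121991740, an EIN3-binding F-box protein 1-like gene (chromosome 6B, 3850122 to 3853366), had 18.8, 28.7 and 21.4 FPKM in control plants and 39.2, 68.6 and 69.0 FPKM in exposed plants. LOC121985728 is annotated as REVERSION-TO-ETHYLENE SENSITIVITY1-like, after an Arabidopsis protein that acts with an ethylene receptor (chromosome 5B, 122257195 to 122262600). It had 3.37, 4.44 and 2.48 FPKM in control plants and 5.53, 8.17 and 9.34 FPKM in exposed plants. The groups did not overlap in either gene, and exposed plant 1 was the lowest exposed plant in both, at 56.7% and 59.3% of the highest. Their fitted log2 fold changes of 1.38 and 1.17 were far smaller than that of LOC122018536.
The study listed these 7 other genes of ethylene synthesis and signalling as upregulated on the same libraries. Neither their direction nor the lack of overlap between groups is therefore independent evidence. The share of all genes without overlap was not counted. EdgeR called 2 of the 7 higher, LOC122022386 and LOC122011509, beside 1.13% of all genes tested, and DESeq2 called all 7, beside 3.74% of those it tested (3.31% were called lower). The edgeR count was 5 without exposed plant 1, 1 without control plant 3, and 0 when any of the other 4 libraries was left out.

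**Figure D4:**
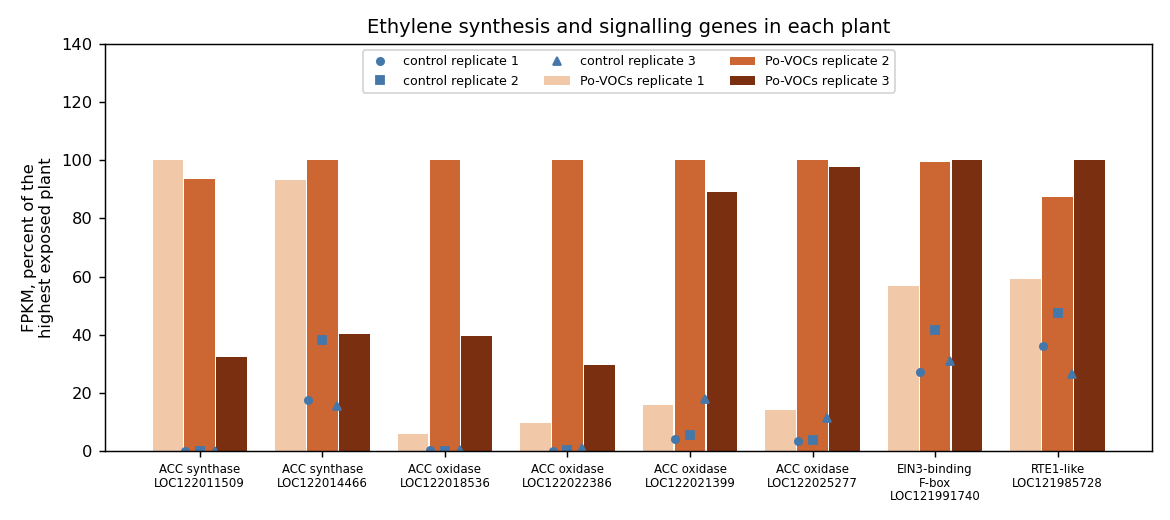
FPKM as a percent of the highest exposed plant for 2 ACC synthase-like genes, 4 ACC oxidase-like genes and 2 signalling genes, with bars for exposed plants 1, 2 and 3 and blue symbols for control plants. Exposed plant 1 was at 5.96% for LOC122018536 but at 93.3% and 100% for the ACC synthase-like genes.

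Genes named as ethylene-responsive factors, a family of transcription factors with an AP2 domain, made up the largest of the lists. They were taken by this name alone, and whether they respond to ethylene in ginger was not tested. The descriptions held 27 such genes, all listed as upregulated by the study, of which 26 were tested. Their log2 fold changes ran from 1.06 to 4.66 with a median of 2.57, beside a median of 0.01 over all genes tested. EdgeR called 8 of them higher and DESeq2 27, beside 1.13% and 3.74% of all genes tested, counts that carry no independent weight for the reason given above. The edgeR count was 15 without exposed plant 1, 7 without control plant 3, 0 without control plant 2 and 1 without each of the other 3 libraries. In FPKM, exposed plant 1 was the lowest exposed plant in 18 of the 27 and the highest in 1, while plant 3 was the highest in 19. The order of LOC122018536, with plant 2 above plant 3 and plant 1, held for 5 of the 27. In log2 CPM, plant 1 was lowest in 34.5%, plant 3 highest in 40.3% and this order present in 12.1% of the 36490 genes above 1 FPKM in exposed plants. Among the 467 genes called higher, these shares were 42.0%, 45.0% and 18.0%. They include the TMM factors and FPKM does not, so the scales differ, and the counts of the 27 genes were not tested against them.
LOC122041812 (ERF003-like) had the pattern most like LOC122018536, with Pearson's r = 0.97 over 6 plants on the log2 CPM scale, at 0.280, 0.0916 and 0.278 FPKM in control plants and 1.15, 2.32 and 1.49 FPKM in exposed plants. LOC122050794 (RAP2-13-like) had the least like pattern (r = 0.79), at 2.34, 4.15 and 2.27 FPKM in control plants and 7.14, 6.15 and 14.1 FPKM in exposed plants. The lowest exposed plant was plant 1 in the former and plant 2 in the latter. Since the 6 plants fall into separate groups and share their libraries, these coefficients are descriptions only.

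The genes most like LOC122018536 depended on the measure of likeness. By Pearson's correlation of log2 CPM over 6 plants, among 37981 genes above 1 FPKM in the higher group, the 5 closest genes were LOC122006099, LOC122026857, LOC121998387, LOC121985296 and LOC121977449, with r between 0.996 and 0.998. All 5 had much smaller changes, with log2 fold changes of 2.35, 0.19, 1.94, 1.70 and 2.31. Their groups did not overlap, which was largely fixed by picking genes so close to one whose groups were apart. LOC122026857 was nearly level, at 5.32, 5.45 and 5.59 FPKM in control plants and 6.44, 6.63 and 5.75 FPKM in exposed plants (adjusted p = 0.512, edgeR's quasi-likelihood test). In FPKM its exposed plant 1 lay above exposed plant 3, unlike in log2 CPM. LOC122006099, annotated as a heavy metal-associated isoprenylated plant protein, had 3.28, 2.86 and 3.62 FPKM in control plants and 8.09, 25.9 and 15.5 FPKM in exposed plants. LOC121998387 is annotated as the receptor-like kinase FERONIA, which in Arabidopsis controls cell growth, and LOC121977449 as a NAC domain transcription factor. LOC121985296 is annotated as a glycerophosphodiester phosphodiesterase GDPDL4-like protein. A correlation above 0.95 was found for 452 of the 37981 genes.
By the root mean square difference of centred log2 CPM, which also weighs the size of the change, the closest gene was LOC122022386 on chromosome 9B, at 0.684, although it ranked 135 by correlation. The next were LOC121977991 (UPF0481 protein-like, 0.857), LOC122034434 (zinc finger protein ZAT10-like, 0.903), LOC122039999 (transcription factor ILI3-like, 0.924) and LOC122030908 (a jasmonate-induced protein-like gene, 0.961). ZAT10 is a stress-induced zinc finger repressor in Arabidopsis. LOC122039999 had 0, 0 and 0.101 FPKM in control plants and 3.13, 7.42 and 10.3 FPKM in exposed plants, so it was also near silence without Po-VOCs, but plant 3 rather than plant 2 was its highest.

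**Figure D5:**
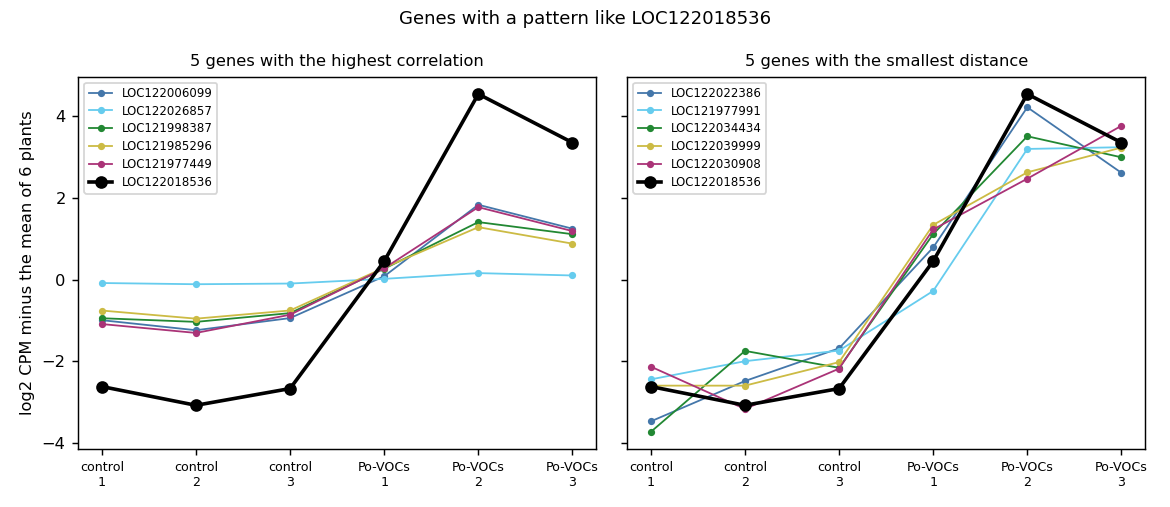
Log2 CPM minus the mean of 6 plants for LOC122018536 (black) and the 5 genes nearest to it by correlation (left) or by root mean square difference (right). The lines join the values of a gene and imply no order of plants. On this scale the genes on the left share the shape at a smaller size, with r of 0.996 to 0.998, and those on the right come near in size. LOC122026857, on the left, was nearly level, with a range of 0.14 among the exposed plants.

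The order and the spread of LOC122018536 were also counted together. Of the 37981 genes, 4582 had the same order of exposed plants and 22 of these had at least its range of log2 CPM. Taken singly, 0.403% of the 36490 genes above 1 FPKM in exposed plants had at least this range, and 12.1% had this order. A small joint count is therefore no sign that order and range go together. The 5 of the 22 with the highest correlation were LOC122040077, LOC121980771, LOC122015843, LOC122042972 and LOC121984669, with r of 0.90, 0.90, 0.83, 0.80 and 0.79. LOC122040077, an ERF024-like ethylene-responsive factor on chromosome 2A, had 0, 0.464 and 1.13 FPKM in control plants and 0.970, 19.1 and 7.94 FPKM in exposed plants. LOC121980771, annotated as a putative glucuronosyltransferase, had 1.18, 0.916 and 1.81 FPKM in control plants and 1.16, 26.1 and 11.9 FPKM in exposed plants. LOC122015843, annotated as a WRKY transcription factor, had 0.763, 0.613 and 0.207 FPKM in control plants and 0.284, 6.84 and 5.13 FPKM in exposed plants. In all 5 genes exposed plant 1 fell within the range of the control plants, so that the groups overlapped, whereas LOC122018536 was above every control plant in exposed plant 1 too. This was not particular to it, since the cut was its own range. LOC122022386 and LOC121977991 had the same order, with smaller ranges of 3.43 and 3.52, and were also above every control plant in exposed plant 1. The rest of the 22 genes were not described.
As a comparison gene, LOC121989190, the elongation factor gene that served as qPCR reference in the study, had 507, 431 and 400 FPKM in control plants and 429, 308 and 478 FPKM in exposed plants. The groups overlapped, and its log2 fold change was -0.14 (adjusted p = 0.802, edgeR's quasi-likelihood test). Its highest and lowest exposed plants differed 1.55-fold, against 16.8-fold for LOC122018536.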

How the data were processed

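According to the paper's methods, paired-end reads from stranded mRNA libraries were trimmed with Trimmomatic and mapped with HISAT2 to the Zo_v1.1 assembly, which RefSeq names as of Zhangliang ginger. The authors deposited raw counts per gene from HTSeq-count, and FPKM values attributed to Cufflinks. For tool versions and the counting mode, the sources used here gave nothing. All 299269 FPKM values above 0 equalled count over length and library total within 0.1%. The counts were fitted in R 4.3.3 with edgeR 4.0.16 (filterByExpr, minimum count 10, TMM, quasi-likelihood test, Benjamini-Hochberg over 41508 genes). A call needed an adjusted p below 0.05 and an absolute log2 fold change above 1. DESeq2 1.42.0 was an alternative. With 3 plants against 3, no exact 2-sided permutation test of a single gene can reach p = 0.05. The code was tested on simulated counts. Intervals cover counting error only. The gene, the lists and the rules were chosen with earlier results of these data known. Named genes are LOC122018536, the described ethylene genes, the nearest 2 genes on each side, the 5 genes most alike by each measure and the qPCR reference gene. Families had been planned by protein sequence. No sequences were used, so only ethylene genes among 1517 genes with a description, part of those upregulated in the study, were listed. Positions are from RefSeq, where all 55601 IDs were found.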

Additional observations from a re-analysis of the deposited data

How the results depend on the processing

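LOC122018536 was chosen for its difference, so the sign of its log2 fold change was fixed and only the size is described. This log2 fold change lay between 3.27 and 7.86 over 14 alternatives, and between 6.32 and 7.86 with single libraries left out. It was 3.27 as a difference of mean log2(FPKM + 1), since that pseudocount is far above the control levels. The value for LOC122022386 moved by less than the spread between exposed plants in every fit. DESeq2 called 1755 genes higher and 1553 lower, against 467 and 433 for edgeR, and called 3 of 3 other ACC oxidase-like, 2 of 2 ACC synthase-like and 2 of 2 signalling genes, against 1, 1 and 0 for edgeR. The replicate numbers showed no sign of pairing the plants. Same-numbered plants correlated at -0.016, 0.024 and -0.10 in their deviations, and plants of unlike number at -0.21 to 0.18. With 3 plants in each group, these values cannot exclude that plants were handled in matched sets. With the replicate block, the log2 fold change of LOC122018536 was 7.06, 65 genes were called higher and 71 lower, and the ACC oxidase-like and ACC synthase-like counts were 0. Without single libraries, edgeR called from 1 (without control plant 2) to 983 (without exposed plant 1) genes higher and from 3 (without control plant 2) to 640 (without control plant 3) lower, with 54, 25 and 28 higher and 37, 12 and 5 lower without control plant 1, exposed plant 2 and exposed plant 3, and 0 to 3 ACC oxidase-like, 0 to 1 ACC synthase-like and 0 to 1 signalling genes. Of the 5 genes with the highest correlation on log2 CPM, 0 were among the 5 highest on log2(FPKM + 1) and 0 among the 5 nearest by root mean square difference. Homologue lists at 40% and 60% identity were not run, as no protein sequences were used. The control level rests on 5 counts, so the size of the fold change is known only roughly. The exact interval given for it covers counting error and not the differences between plants. Single exposed plants ranged from 21.1-fold to 354-fold above the pooled control plants.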

Other observations

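ACC oxidase belongs to a superfamily of iron-dependent dioxygenases, and the described genes held 6 other members, looked at after the values of LOC122018536 were known and all listed as upregulated by the study on these libraries. In FPKM, exposed plant 1 was the lowest exposed plant in 4 of the 6. In log2 CPM it was the lowest in 34.5% of the 36490 genes above 1 FPKM in exposed plants and in 42.0% of those called higher. EdgeR called 2 of the 6 higher, beside 1.13% of all genes tested. LOC122038528, a flavanone 3-dioxygenase 2-like gene, had 5.18, 4.64 and 2.55 FPKM in control plants and 2.17, 28.4 and 21.9 FPKM in exposed plants, so its level in exposed plant 1 lay below all control plants. LOC122054229, a gibberellin 20 oxidase 2-like gene of gibberellin synthesis, had 0.138, 0.361 and 0.274 FPKM in control plants and 2.41, 1.15 and 0.782 FPKM in exposed plants. Exposed plant 1, the lowest of the exposed plants for LOC122018536, was thus the highest for this gene.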
